A study of Mus musculus with 7 samples.

Results

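Expression of 10 Toll-like receptor genes of the mouse, Tlr1 to Tlr9 and Tlr13, was followed in bone marrow-derived macrophages (BMDMs). The genes were taken by symbol, and all 10 were found among the 48440 genes of the LPS table and among the 55352 genes of the AAV table. Toll-like receptors are membrane proteins whose leucine-rich outer part binds conserved microbial molecules and whose inner TIR domain recruits the adaptors MyD88 or TRIF, which lead to NF-kB and interferon responses. Some sit at the cell surface and bind lipids, lipoproteins or flagellin, and others sit in endosomes and bind nucleic acids. In macrophages they are among the main sensors of bacteria and viruses.

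BMDMs were grown from bone marrow of wild-type C57BL/6 mice with 20 ng per mL M-CSF over 7 days. In the first experiment the groups were untreated BMDMs and BMDMs given LPS, the lipid of the outer bacterial membrane, at 100 ng per mL for 2 h or for 4 h, with 1 library each. In the second experiment BMDMs carried an adeno-associated virus of serotype 1 whose CAG promoter drove either GFP, the control, or Shisa3, which encodes a transmembrane protein, for 48 h, and each of these groups, AAV-GFP and AAV-SHISA3, had 2 samples. The CAG promoter is active in most cell types, and every sample of the second experiment carried a viral vector, so an effect of the virus itself cannot be told apart from these levels. Nothing in the labels ties the 2 samples of a group to separate mice or cultures, so p-values measure only the spread between these samples, which may be technical.

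The deposited LPS values were counts of reads divided by a library factor. The untreated library held 15588502 reads, the 4 h library 32659392 and the 2 h library only 7263258, so low genes were least precise at 2 h. Tnf, a cytokine induced by LPS, had values of 137, 36109 and 19042 at 0, 2 and 4 h. Of the 17854 genes that passed the filter on low values (mean of 1 or more), 20.5% were at least 2-fold higher and 24.7% at least 2-fold lower at 2 h, and 22.2% were higher and 23.6% lower at 4 h. The choice of scale moved these shares. With reads divided by library totals 13.7% were higher and 40.3% lower at 2 h, and 13.8% were higher and 44.3% lower at 4 h, and the median of all genes lay at -0.70 and -0.82 on the log2 scale. With each library centred on its median, 26.9% were higher and 19.3% lower at 2 h, and 29.6% were higher and 17.0% lower at 4 h. All 10 macrophage markers tried had reads in every LPS library, but so had all 9 neutrophil and all 5 fibroblast markers. Levels per base of exon, scaled to 1000000 per library, differed more. At 0 h they summed to 49225 for the macrophage markers, with 40863 from Lyz2 alone, to 1264 for the neutrophil markers and to 10.7 for the fibroblast markers. In the AAV table, whose values were TPM (transcript levels per length that sum to about 1000000 in each sample), Shisa3 was at 7.88 and 10.85 TPM in AAV-GFP and at 12.31 and 17.81 TPM in AAV-SHISA3, above both controls but not past the threshold (log2 fold change 0.63, limma with Benjamini-Hochberg adjustment, adjusted p = 0.138).

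Sequence before the start sites of 4 members is shown because these genes had the largest differences of their class or held a motif of interest. RefSeq promoter windows (GRCm38.p6) running from 250 bases before to 50 bases after an annotated start were found for 8 of the 10 members, with Tlr4 and Tlr7 not matched. They were searched on both strands for the NF-kB consensus, for the core of the interferon-stimulated response element (GAAA, any 2 bases, then GAAA again), for the AP-1 site (TGANTCA) and for the ETS or PU.1 core (GAGGAA). Capitals mark matches to the first pair of these motifs, and each line runs from 250 bases before the start to the second base of the transcript, 5′ to 3′ on the gene's strand.
Tlr2, chr3:83841607-83841858, minus strand: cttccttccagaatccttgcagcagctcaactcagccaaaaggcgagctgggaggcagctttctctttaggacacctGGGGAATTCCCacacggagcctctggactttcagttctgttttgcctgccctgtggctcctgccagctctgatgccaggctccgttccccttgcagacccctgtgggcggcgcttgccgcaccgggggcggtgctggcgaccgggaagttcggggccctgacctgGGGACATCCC
Tlr3, chr8:45410379-45410630, minus strand: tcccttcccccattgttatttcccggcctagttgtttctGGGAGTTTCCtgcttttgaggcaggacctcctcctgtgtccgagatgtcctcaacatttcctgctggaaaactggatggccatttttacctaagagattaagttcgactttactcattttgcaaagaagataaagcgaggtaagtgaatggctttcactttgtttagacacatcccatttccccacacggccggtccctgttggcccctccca
Tlr6, chr5:64959165-64959416, minus strand: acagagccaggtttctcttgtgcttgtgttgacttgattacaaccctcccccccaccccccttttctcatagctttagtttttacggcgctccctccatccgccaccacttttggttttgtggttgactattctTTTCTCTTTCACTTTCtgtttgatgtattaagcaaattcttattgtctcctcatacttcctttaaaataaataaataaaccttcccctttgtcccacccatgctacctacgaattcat
Tlr13, chrX:106143025-106143276, plus strand: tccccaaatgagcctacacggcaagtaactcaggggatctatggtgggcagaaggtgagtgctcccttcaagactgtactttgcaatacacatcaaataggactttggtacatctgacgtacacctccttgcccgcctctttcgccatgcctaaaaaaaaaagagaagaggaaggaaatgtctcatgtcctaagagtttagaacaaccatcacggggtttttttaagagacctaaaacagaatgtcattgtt

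The Tlr2 window held the NF-kB consensus at 2 separate places, one of overlapping matches that began at -173 and -172 and another that began at -8, counted in bases from the start. The Tlr3 window held it once, at -211. Among 32851 mouse promoter windows of this length, 4.505% held at least 1 match. The Tlr6 window shown held 2 overlapping matches to the interferon-response core on the opposite strand, at -116 and -110, a motif found in 3.443% of all windows, and a second Tlr6 window held none. The windows of Tlr13, Tlr8, Tlr5 and Tlr1 held neither motif. The Tlr9 window held an AP-1 site, a motif that reads alike on both strands, at -58 (7.808% of all windows), and the windows of Tlr8, Tlr9 and Tlr13 and 1 of the 2 windows of Tlr1 held the ETS or PU.1 core (28.28% of all windows). These matches describe letters in the sequence and were not measured as bound sites.

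The first question was how LPS moved the receptors that sense it and its relatives. With 1 library per time point no difference had a replicate check, and no test was made. A gene was described as higher or lower when it differed at least 2-fold on log2(value + 1), and the 2 h and 4 h comparisons share the same 0 h library. On the authors' scale 2 of the 10 receptors were at least 2-fold higher and 3 at least 2-fold lower at 2 h, and 4 were higher and 2 lower at 4 h, which read against the 20.5%, 24.7%, 22.2% and 23.6% of all genes given above. With library totals the members' counts were 1 higher and 6 lower at 2 h, against 13.7% and 40.3% of all genes. At 4 h they were 2 higher and 3 lower, against 13.8% and 44.3%. In bulk RNA, fewer cells of a type and less RNA per cell cannot be told apart. Intervals below are 95% intervals of the read counts and cover counting error only.

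**Figure D1:**
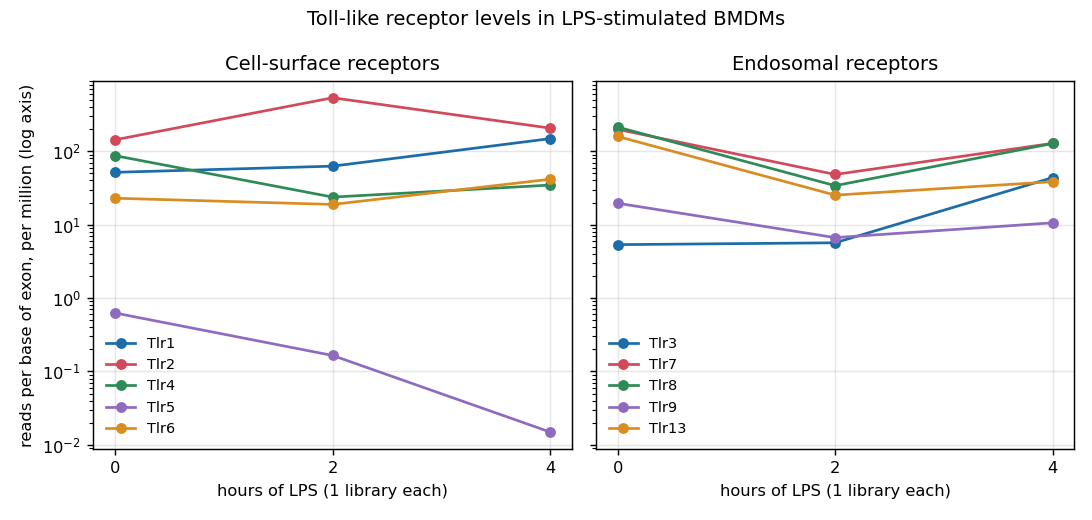
Level of each Toll-like receptor, as reads per base of exon scaled to 1000000 per library (log axis), against hours of LPS, with cell-surface receptors on the left and endosomal receptors on the right and 1 library per point. Tlr2 stands highest at 2 h, and Tlr3 is nearly level between 0 h and 2 h and higher at 4 h. Tlr4, Tlr7, Tlr8, Tlr9 and Tlr13 dip at 2 h, and Tlr6 dips less.

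Among the cell-surface receptors, Tlr2, which pairs with Tlr1 or Tlr6 to bind bacterial lipoproteins, stood out at 2 h. It had 3030, 6140 and 8718 reads at 0, 2 and 4 h, which are values of 1949, 13408 and 4737 on the authors' scale. It was highest at 2 h and lay in between at 4 h. The value was 6.88-fold higher at 2 h (6.58 to 7.19) and 2.43-fold higher at 4 h (2.33 to 2.53). With library totals the folds were 4.35 and 1.37, so only the difference at 2 h stayed past 2-fold on both scales. At 2 h Tlr2 ranked 888 from the top of 17854 genes by log2 fold change, and at 4 h it ranked 3146. Of 9 neutrophil markers, 5 were at least 2-fold higher and 0 lower at 2 h, against 20.5% and 24.7% of all genes. At 4 h 0 were higher and 2 lower, against 22.2% and 23.6%. By library totals 1 was higher at 2 h, against 13.7%. The summed level of the 9 per base of exon was 1264, 1389 and 1238, Ly6g had 4, 1 and 2 reads, and the part of neutrophils in the Tlr2 values was not tested.

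Tlr1, the partner of Tlr2 for triacylated lipoproteins, had 1212, 797 and 6966 reads, or values of 780, 1740 and 3785. It was highest at 4 h, with a fold of 2.23 (2.04 to 2.44) at 2 h and 4.86 (4.57 to 5.16) at 4 h. Library totals gave 1.41 and 2.74. Tlr6, the partner of Tlr2 for diacylated lipoproteins, had 599, 267 and 2172 reads, or values of 385, 583 and 1180. Its fold was 1.51 (1.30 to 1.75) at 2 h and 3.06 (2.80 to 3.36) at 4 h, and library totals gave 0.957 and 1.73, so its direction at 2 h turned with the scale. Tlr1 and Tlr6 lie on the same strand of chromosome 5, and 19.5% of the 31-base words of the Tlr1 transcripts occur in those of Tlr6 too, so reads can be split between the 2 genes in ways the deposited values do not show. No other pair of the 10 receptors shared such a word.

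Tlr4, which binds LPS itself together with MD-2, went the other way from its lipoprotein-sensing relatives. It had 3393, 501 and 2694 reads, or values of 2183, 1094 and 1464. The value was lowest at 2 h and below the untreated library at both times, by 2.00-fold (1.82 to 2.20), just short of the 2-fold mark, and by 1.49-fold (1.42 to 1.57). Library totals gave 3.16-fold and 2.64-fold lower, and centring on the median gave log2 differences of -0.68 and -0.20, so the direction was the same under the 4 scalings and the size was not. Tlr5, the flagellin receptor, was nearly absent, with 21, 3 and 1 reads. Its ratio at 4 h was 24.9-fold lower with a counting interval from 4.00 to 1028, and at 2 h 2.06-fold lower with an interval of 0.616 to 10.8.

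**Figure D2:**
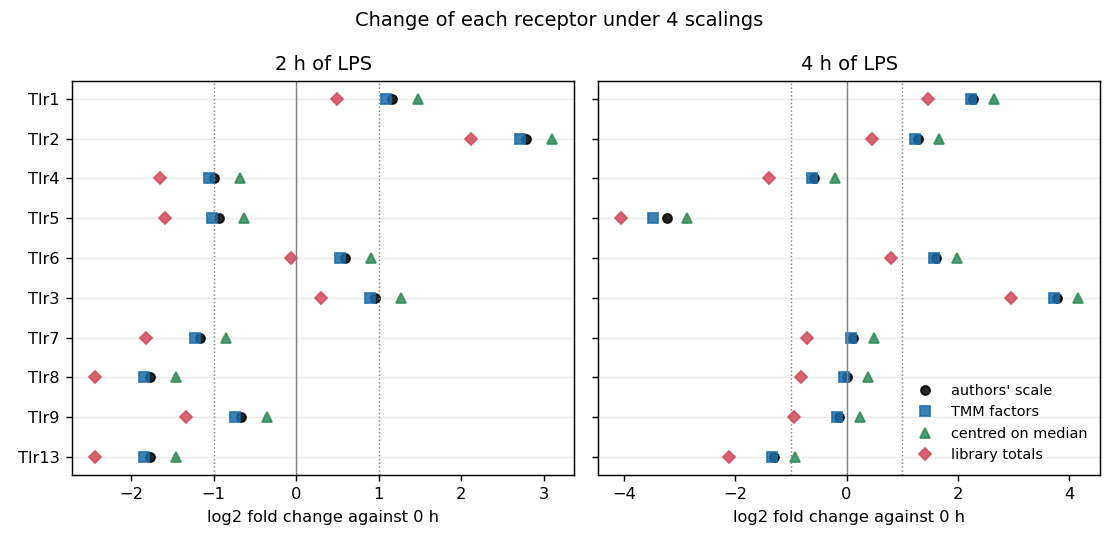
Log2 fold change of each receptor against 0 h at 2 h (left) and 4 h (right) of LPS, with 1 library per time point, drawn on the authors' scale and with 3 other scalings; dotted lines mark 2-fold. Tlr2 at 2 h and Tlr1 and Tlr3 at 4 h lie beyond 2-fold on the higher side under all 4 scalings, Tlr8 and Tlr13 lie beyond it on the lower side at 2 h, and Tlr7, Tlr8 and Tlr9 fall on both sides of 0 at 4 h.

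Among the endosomal receptors, Tlr3, which binds double-stranded RNA and signals through TRIF alone, was the receptor furthest above the untreated library at 4 h. It had 195, 112 and 3194 reads, or values of 125, 245 and 1736. The 4 h library was far above the other 2. The fold was 1.95 (1.53 to 2.47) at 2 h and 13.8 (12.0 to 16.1) at 4 h, and with library totals it was 1.23, with an interval that reached below 1 (0.968 to 1.56), and 7.82. By log2 fold change Tlr3 ranked 492 from the top of 17854 genes at 4 h. An annotated gene on the opposite strand, Gm45542, overlaps 381 bases of Tlr3 exons. Its symbol was not found in the LPS table, so its reads under LPS are unknown. It was listed at 0 in all 4 AAV samples, which had no LPS. Whether strand was used in counting is not given in the sources used here.

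Tlr7, a sensor of single-stranded RNA, had 5692, 749 and 7335 reads, or values of 3661, 1636 and 3986. The 2 h library was below both others. The value was 2.24-fold lower at 2 h (2.07 to 2.42) and 1.09-fold of the untreated library at 4 h (1.05 to 1.13). Library totals placed it below the untreated library at both times, at 3.54-fold and 1.63-fold lower. Tlr8, its neighbour on the X chromosome and a related RNA-sensing receptor, had 5376, 463 and 6412 reads, or values of 3458, 1011 and 3484. It was 3.42-fold lower at 2 h (3.11 to 3.77), and at 4 h its ratio of 1.01 had an interval from 0.972 to 1.04, while library totals left it 1.76-fold lower. The path of Tlr8 thus followed that of Tlr7, low at 2 h and back near the first value at 4 h on the authors' scale.

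Tlr13, the receptor for a stretch of bacterial ribosomal RNA, had 4806, 413 and 2316 reads, or values of 3092, 902 and 1259. It was 3.43-fold lower at 2 h (3.10 to 3.80) and 2.46-fold lower at 4 h (2.34 to 2.58), with 5.42-fold and 4.35-fold by library totals. Unlike Tlr7 and Tlr8 it was still below the untreated library at 4 h under the 4 scalings, although centring on the median put it short of 2-fold there, with a log2 difference of -0.92. Tlr9, the receptor for unmethylated CpG DNA, had 477, 88 and 516 reads, or values of 307, 192 and 280. It was 1.60-fold lower at 2 h (1.27 to 2.03), and its difference at 4 h was within counting error on the authors' scale (1.09-fold lower, 0.964 to 1.24) and turned with the scale, with a log2 difference of -0.95 by library totals and of 0.24 after centring.

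Between 2 h and 4 h the family moved again. On the authors' scale 5 receptors were at least 2-fold higher at 4 h than at 2 h, Tlr1, Tlr6, Tlr3, Tlr7 and Tlr8, against 17.9% of all genes. Another 2, Tlr2 and the barely detected Tlr5, were at least 2-fold lower, against 15.2% of all genes. The fold from 2 h to 4 h was 7.10 for Tlr3 (5.88 to 8.65) and 3.45 for Tlr8 (3.14 to 3.80). Tlr2 was 2.83-fold lower at 4 h than at 2 h (2.74 to 2.92). With library totals Tlr1 and Tlr6 fell short of 2-fold, at 1.94 and 1.81.

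Shares of the family's own reads do not depend on the scale between libraries. The 10 receptors together had 24801, 9533 and 40324 reads. Tlr2 made up 12.2% of them in untreated cells (11.8% to 12.6%, Wilson interval). Its share was 64.4% (63.4% to 65.4%) after 2 h and 21.6% (21.2% to 22.0%) after 4 h. The endosomal class went from 66.7% (66.1% to 67.3%) to 19.1% (18.4% to 19.9%) and then to 49.0% (48.5% to 49.5%). Tlr3 alone accounted for 0.786%, 1.17% and 7.92%, and Tlr13 for 19.4%, 4.33% and 5.74%. At 2 h the family's reads were thus mostly those of 1 gene, and at 4 h they were spread again but in other proportions than in untreated cells.

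**Figure D3:**
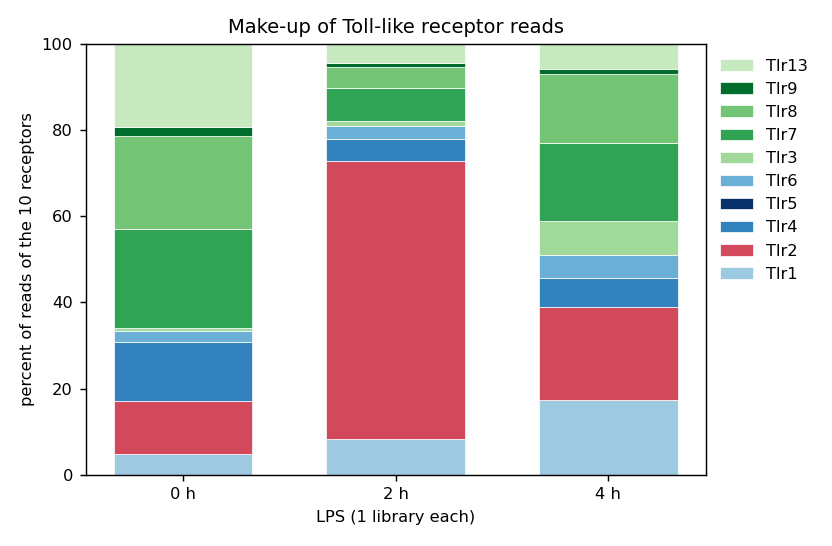
Percent of the reads of the 10 receptors that fell on each receptor at 0, 2 and 4 h of LPS, as stacked bars from 0 to 100, with 1 library per bar; Tlr2 is red, the other cell-surface receptors are blue and the endosomal receptors are green. Tlr2 takes 12.2%, 64.4% and 21.6%, and the green part shrinks to 19.1% at 2 h.

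The shares above are of reads and were not corrected for exon length. For the order of levels in the LPS libraries, different genes were compared per base of exon, scaled to 1000000 per library. In untreated BMDMs the order was Tlr8 (214), Tlr7 (199), Tlr13 (159), Tlr2 (143), Tlr4 (87.1), Tlr1 (51.7), Tlr6 (22.9), Tlr9 (19.6), Tlr3 (5.34) and Tlr5 (0.625), with no spread over samples to judge neighbours by. At 2 h Tlr2 led at 536 and the next, Tlr1, was at 62.7. At 4 h Tlr2 (207) and Tlr1 (149) led, Tlr7 (128) and Tlr8 (128) were nearly equal, and Tlr3 (43.8) had moved from the ninth place to the fifth. The level of Tlr2 was 1.65, 22.6 and 5.97 times that of Tlr4 at 0, 2 and 4 h, and 2.78, 8.55 and 1.39 times that of Tlr1. The ratio of Tlr7 to Tlr8 was 0.930, 1.42 and 1.00. The summed level of the family on this scale, which is set by each library's total, was 903, 762 and 781.

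Genes that the receptors work with were described from lists of fixed membership, whose counts at 4 h read against 22.2% of all genes higher and 23.6% lower, or 13.8% and 44.3% by library totals. Of the 6 co-receptors, 2 were at least 2-fold higher at 4 h, and 1 by library totals. Cd14, which hands LPS to TLR4, had values of 2841, 32037 and 17508, and Ly96, which encodes MD-2, had 137, 131 and 277 and was short of 2-fold by library totals (log2 difference 0.19). Of the 6 adaptors, 4 were higher and 1 lower at 4 h (2 and 2 by library totals). Myd88 had values of 847, 5470 and 6348, with a log2 difference at 4 h of 2.91 on the authors' scale and 2.08 by library totals. Ticam1, which encodes TRIF, had 225, 297 and 498, with 1.15 and 0.32 on the same 2 scales. Pik3ap1, the adaptor between these receptors and PI3-kinase, had log2 differences of 2.17 at 2 h and 2.76 at 4 h. The members of this list were therefore not equally distant from the 2-fold mark, and only Myd88 and Pik3ap1 were beyond it on the higher side on both scales.

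Of 15 genes of endosomal receptor trafficking and processing with a sufficient mean, 2 were higher and 2 lower at 4 h, and by library totals 0 were higher and 5 lower. Unc93b1, the chaperone that carries nucleic acid-sensing receptors to endosomes, had values of 8898, 13013 and 10943, less than 2-fold apart. Cnpy3 and Cnpy4, which act in the folding and surface display of Toll-like receptors, were lower at 4 h, with log2 differences of -1.56 and -2.03. Of 14 kinases and ubiquitin ligases of the pathway, 6 were higher and 1 lower at 4 h, against 3 and 3 by library totals, with Peli1 (3.82) and Irak2 (3.22) furthest up and Tab1 (-1.82) the one below. Of 10 negative regulators, 4 were higher and 3 lower at 4 h (4 and 4 by library totals). Tnfaip3, the A20 deubiquitinase, was at 393, 50159 and 34388, and Sigirr, an inhibitory TIR-domain receptor, had a log2 difference of -2.88. Of 14 pattern sensors outside the family, 10 were higher and 1 lower both at 2 h and at 4 h (9 and 3 by library totals). Clec4e, the lectin Mincle, and Ifih1, the RNA sensor MDA5, had the largest log2 differences at 4 h, of 5.98 and 5.05. The median log2 difference at 4 h was 3.27 for these sensors, 1.28 for the 5 cell-surface receptors, 0.01 for the 5 endosomal receptors and -0.04 for all genes.

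The second question was whether Shisa3 delivery moved the receptors without LPS. Of the 10 receptors, 9 had a mean of at least 1 TPM and were tested, and 1, Tlr2, was higher in AAV-SHISA3 at an adjusted p under 0.05, against 2.23% of the 11218 genes tested. None of the 9 was called lower by limma, against 4.1% of all genes, and 3 of the 9 had an unadjusted p under 0.05, against 28% of all genes. Over all genes 250 were called higher and 460 lower, and median centring of the samples gave 410 higher and 230 lower. The exact permutation test of 2 against 2 samples cannot give a p below 0.333, so the p-values rest on limma's pooling of the spread across genes.

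Tlr2 was at 61.06 and 56.87 TPM in AAV-GFP and at 100.44 and 101.23 TPM in AAV-SHISA3. Both AAV-SHISA3 samples lay above both controls. The mean went from 59.0 ± 2.96 to 101 ± 0.559 TPM (SD, n = 2 per group), and limma gave a log2 fold change of 0.76 with an SE of 0.08, an interval from 0.57 to 0.96 and an adjusted p of 0.0174 after Benjamini-Hochberg adjustment. The call was lost when limma was run without a variance trend (adjusted p = 0.0557), with no filter on low values (adjusted p = 0.105) and when any of the 4 samples was left out (adjusted p from 0.0903 to 0.173), while the unadjusted p stayed under 0.05 in all 10 alternatives. The summed level of 9 neutrophil markers was 593 and 565 TPM in AAV-GFP and 1092 and 683 TPM in AAV-SHISA3. Of the 8 tested, 8 lay above both controls in both AAV-SHISA3 samples, against 18.2% of all genes. Camp and Ngp, 2 of the 8, were called higher, against 2.23% of all genes. The defining neutrophil marker Ly6g was at 0.11, 0.11, 0.29 and 0.1 TPM, and the part of neutrophils in the Tlr2 result was not tested.

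**Figure D4:**
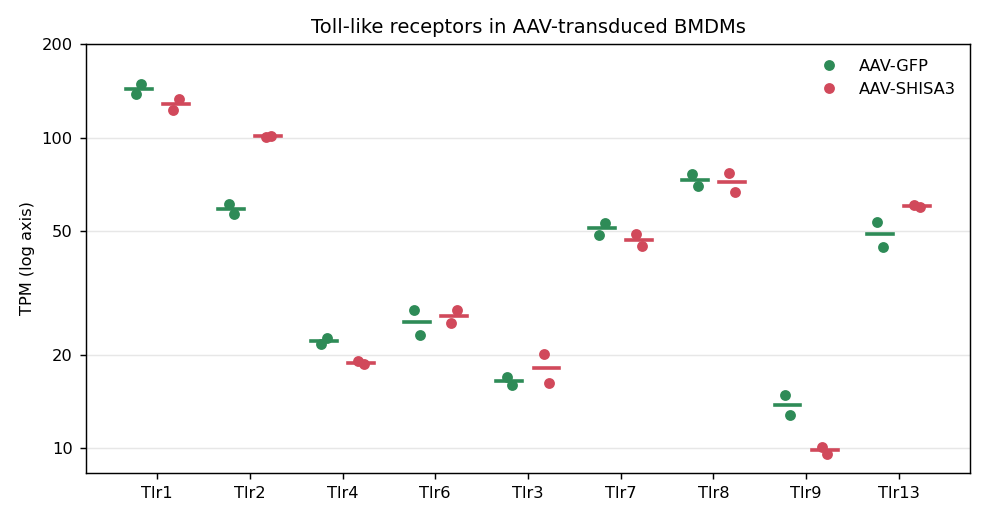
TPM (log axis) of the 9 tested Toll-like receptors in the 2 AAV-GFP (green) and 2 AAV-SHISA3 (red) samples, with a bar at each group mean. The groups lie apart for Tlr2, and the shifts of Tlr9, Tlr13, Tlr4 and Tlr1, whose samples do not overlap either, are smaller.

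The partners of Tlr2 did not follow it past the threshold. Tlr1 was at 138.16 and 148.64 TPM in AAV-GFP and at 122.64 and 133.3 TPM in AAV-SHISA3, with both AAV-SHISA3 samples below both controls (log2 fold change -0.16, interval -0.37 to 0.04, limma adjusted p = 0.258). Tlr6 was at 27.84 and 23.15 TPM and at 25.39 and 27.83 TPM, with overlapping groups (0.06, interval -0.24 to 0.36, limma adjusted p = 0.762). The ratio of Tlr2 to Tlr1 was 0.442 and 0.383 in AAV-GFP and 0.819 and 0.759 in AAV-SHISA3. Tlr4 was at 21.61 and 22.72 TPM in AAV-GFP and at 19.11 and 18.66 TPM in AAV-SHISA3, where both samples were the lower ones (-0.22, interval -0.45 to 0.01, limma adjusted p = 0.199). The ratio of Tlr2 to Tlr4 was 2.83 and 2.50 in AAV-GFP and 5.26 and 5.42 in AAV-SHISA3. Tlr5 was at 0, 0.16, 0.08 and 0.07 TPM in the 4 samples, below the filter on low values, and was left out of the main fit.

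None of the 5 endosomal receptors passed the threshold in limma, and 2 of them had an unadjusted p under 0.05, as did 28% of all genes. Tlr9 was at 14.81 and 12.76 TPM in AAV-GFP and at 10.12 and 9.56 TPM in AAV-SHISA3, both below both controls (log2 fold change -0.44, interval -0.75 to -0.14, limma adjusted p = 0.0903). The B-cell marker Cd79b was at 13.47 and 11.43 TPM in AAV-GFP and at 9.35 and 7.88 TPM in AAV-SHISA3, while Cd79a, Ms4a1 and Pax5 were at or below 0.16 TPM in every sample. Tlr13 was at 53.53 and 44.38 TPM and at 60.46 and 59.98 TPM, both above both controls (0.30, interval 0.03 to 0.57, limma adjusted p = 0.151). Its log2 fold change was 0.17 without AAV-GFP replicate 2 and 0.43 without AAV-GFP replicate 1. The groups of Tlr9 and Tlr13 moved in opposite directions, and neither passed the threshold in any of the 10 alternatives.

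Tlr7 was at 48.75 and 53.27 TPM in AAV-GFP and at 49.06 and 44.79 TPM in AAV-SHISA3 (log2 fold change -0.12, interval -0.35 to 0.11, limma adjusted p = 0.451). Tlr8 was at 76.35 and 69.71 TPM and at 76.66 and 66.85 TPM (-0.03, interval -0.28 to 0.22, limma adjusted p = 0.884). Tlr3 was at 16.98 and 15.95 TPM and at 20.06 and 16.21 TPM (0.13, interval -0.20 to 0.45, limma adjusted p = 0.568). The groups of these 3 overlapped, and each interval spanned 0. Of the 9 receptors 2 lay above and 3 below the controls in both samples, where all genes gave 18.2% above and 41.2% below, and the median log2 fold change was -0.03 for the 9 receptors and -0.10 for all genes.

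**Figure D5:**
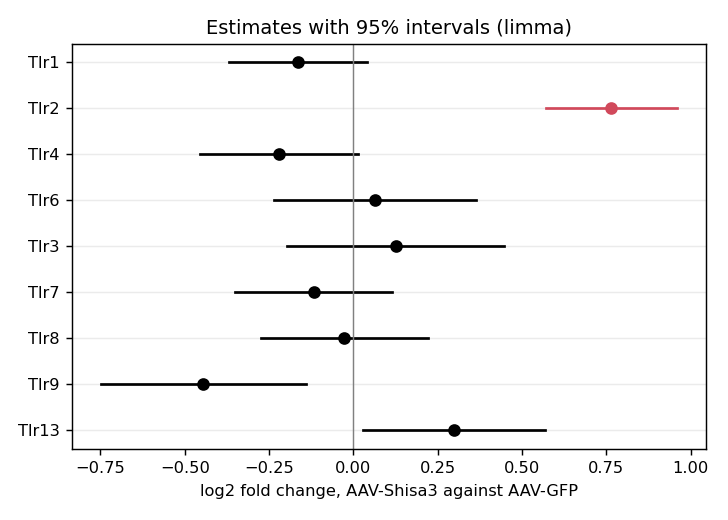
Log2 fold change of AAV-SHISA3 against AAV-GFP for the 9 tested receptors, with 95% intervals from limma on log2(TPM + 1), 2 samples per group. Tlr2 (red, adjusted p = 0.0174) has the only estimate past the threshold, and the intervals of Tlr9 and Tlr13 lie off 0 before adjustment.

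In AAV-GFP samples the order of mean levels was Tlr1 (143 TPM), Tlr8 (73.0), Tlr2 (59.0), Tlr7 (51.0), Tlr13 (49.0), Tlr6 (25.5), Tlr4 (22.2), Tlr3 (16.5), Tlr9 (13.8) and Tlr5 (0.08), and of these neighbours only Tlr7 and Tlr13 overlapped. In AAV-SHISA3 samples Tlr2 and Tlr13 each stood 1 place higher, and only Tlr4 and Tlr3 overlapped as neighbours. Tlr1 was thus first here and sixth in untreated BMDMs of the LPS table, but the 2 tables were normalized separately and hold different experiments, so levels were not compared across them. The cell-surface class made up 54.2% and 56.2% of the family's level in AAV-GFP and 55.3% and 58.7% in AAV-SHISA3, with overlapping groups.

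Among the partner genes, Cd14 was called as Tlr2 was, and the counts below read against 2.23% of all genes called higher and 4.1% lower. It was at 735 and 712 TPM in AAV-GFP and at 1199 and 1282 TPM in AAV-SHISA3 (log2 fold change 0.78, limma adjusted p = 0.0153), the 1 call among 6 co-receptors, and Ly96 was at 19.86, 21.92, 18.94 and 22.27 TPM. Of 5 tested adaptors, 1 was called: Ticam2, the bridge between TLR4 and TRIF, was lower (-0.62, limma adjusted p = 0.0279). Myd88 (0.16, limma adjusted p = 0.236) and Ticam1 (-0.18, limma adjusted p = 0.283) were not called. Of 15 trafficking and processing genes, Cnpy4 (-0.56) and Ctsl, a protease that cleaves endosomal receptors (-0.40), were lower, and Unc93b1 was not called (-0.03, limma adjusted p = 0.823). Of 14 kinases and ligases Ripk1 was lower (-0.40), and of 8 tested negative regulators Socs1 was higher (0.83, limma adjusted p = 0.0263). Of 14 other pattern sensors 2 were higher, the beta-glucan receptor Clec7a (1.18) and the inflammasome sensor Nlrp3 (0.94). All these calls were lost with no filter on low values and with either AAV-GFP sample left out, where limma called 0 genes in all and 2028 to 3529 genes had an unadjusted p under 0.05.

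The genes nearest to a receptor over its 3 log2 fold changes, 2 h and 4 h of LPS and AAV-SHISA3 against AAV-GFP, were found by Euclidean distance among the 10532 genes kept in both tables. Tlr2 had Prr5l (distance 0.442), Tshz1 (0.442) and Gm10182 (0.476) nearest. Tlr3 had Tcp10b (0.294), Gm4951 (0.435) and Gvin1 (0.470), and Tlr13 had Uhrf1bp1 (0.187), 2310040G24Rik (0.190) and Ap1s2 (0.206). Tlr1 had Max, Kmt5a and Pou2f2 within a distance of 0.113, and Tlr6 had Dpysl2, Ptprc and Rnf139 within 0.0863. The neighbours of Tlr2 and Tlr3 were thus farther from them than those of Tlr1 and Tlr6, in a measure with 1 library per LPS time point. Few genes differed as much as Tlr2 at 2 h or Tlr3 at 4 h, so the distance also depends on the size of the difference.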

How the data were processed

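BMDM RNA was sequenced in 7 samples. The LPS table, as deposited, holds a signal for each gene: reads over a library-specific factor. Whole reads were recovered for 100% of values (tolerance 0.01). The AAV table, as deposited, sums to between 999778 and 999818 per sample, and the authors' values were taken as TPM. The labels name build mm9; the aligner, annotation and quantification tool are not given in the sources used here. Depth behind the TPM is unknown, so no counting interval was given there.

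LPS folds were taken on log2(value + 1) over the 17854 genes whose mean reached 1, and folds with intervals on the values themselves (exact for ratios, Wilson for shares). TMM factors came from edgeR 4.0.16 on recovered reads. Exon lengths came from GENCODE M21, which held 99.21% of the LPS identifiers, and 96.4% of the AAV symbols. AAV groups were compared with limma 3.58.1 (R 4.3.3), with a variance trend, on log2(TPM + 1) over the 11218 genes whose mean reached 1, and p-values were adjusted by Benjamini-Hochberg, with calls under 0.05; the study's own test for these tables is not stated. The fit was run on simulated data whose planted changes were larger than any receptor's in the AAV comparison. That run cannot show how well changes of the receptors' size are called. Alternatives were another scale, filter and pseudocount, no variance trend, a replicate block and each AAV sample left out.

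The members and lists were chosen with earlier results of these data known. All 10 receptors were named. Of each list, genes called in the AAV comparison or at least 2-fold different at 4 h of LPS could be named, largest first, at most 4 per list and direction; Cd14, Ly96, Myd88, Ticam1 and Unc93b1 were named in any case, and Shisa3 and Tnf as checks of the labels. For receptors past 2-fold at 4 h the 3 nearest genes were named; Tlr5 was not kept in both tables.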

Additional observations from a re-analysis of the deposited data

Results flagged for a closer look

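A pair of receptors lay on opposite sides of the untreated library at the 2 times of LPS on the authors' scale. The log2 fold change of Tlr7 was -1.16 at 2 h and 0.12 at 4 h, and that of Tlr8 was -1.77 at 2 h and 0.0109 at 4 h. Each time point is 1 library, both comparisons share the 0 h library, and the difference was not tested. By library totals both genes were below the untreated library at both times. For Tlr8 the ratio of 1.01 at 4 h had a counting interval from 0.972 to 1.04, and TMM factors turned its log2 fold change to -0.04.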

How the results depend on the processing

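In the AAV comparison, limma called 250 genes higher and 460 lower. It called 1 and 4 without the variance trend, 410 and 230 with each sample centred on its median, and 0 and 0 with no filter on low values, where 20300 genes with any value were tested and 3529 had an unadjusted p under 0.05. With the replicate block it called 424 and 851 genes, Tlr2 stayed the 1 receptor called (adjusted p = 0.0138), and same-numbered samples correlated at 0.188 in their deviations from the group means. The labels give no more than a shared number, and 2 pairs cannot settle whether the numbers pair the samples. With 1 sample left out it called 0 to 27 genes higher and 0 to 7 lower, with 2028 to 2402 at an unadjusted p under 0.05, the lone sample being assumed to vary like the other group. The count of receptors called higher, which was 1 (Tlr2), was 0 without the trend, with no filter and with any sample left out, where the log2 fold change of Tlr2 was 0.71 to 0.82. In the LPS comparison, library totals gave 1 receptor at least 2-fold higher and 6 lower at 2 h (13.7% and 40.3% of all genes). They gave 2 higher at 4 h (13.8% of all genes) and 3 higher at 4 h against 2 h (15.3% of all genes). TMM factors gave 5 lower at 2 h (26.0% of all genes), and centring on the median gave 1 lower at 4 h (17.0%). The cause was not tested. Other pseudocounts and filters moved no LPS count of receptors by over 1.5 times. The 2 h library, at 7263258 reads, limits Tlr9, Tlr3 and Tlr5 most.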

Other observations

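Both other family symbols in the tables were at the edge of detection. Tlr11 had 11, 2 and 7 reads and Tlr12 had 4, 1 and 0 reads at 0, 2 and 4 h of LPS, and neither was above 0.07 TPM in any AAV sample. The level of Tlr3 was 0.0269, 0.117 and 0.341 times that of Tlr7 at 0, 2 and 4 h of LPS, and 0.348 and 0.299 times in AAV-GFP against 0.409 and 0.362 in AAV-SHISA3, as values in tables that were normalized separately.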
